A study of Mus musculus with 9 samples.

Results

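The wound-induced keratins Krt6a, Krt6b, Krt16 and Krt17 were followed in mouse ear epidermis under imiquimod (IMQ) and the herbal decoction Xiao-Yin-Fang (XYF). The 4 genes were taken by symbol from the deposited epidermal count table, which lists 52550 genes, of which 54 carry a keratin symbol. All libraries were made from intact epidermal sheets of ears of wild type C57BL/6 mice aged 8 weeks, given in the methods of the study as C57BL/6J and male. Mice of the VAS + H2O group had Vaseline put on the skin for 5 days and received water by gavage for 10 days. Mice of the IMQ + H2O group received the same water, with imiquimod cream, an agonist of a Toll-like receptor that brings about a psoriasis-like dermatitis, in place of Vaseline. Mice of the IMQ + XYF group received imiquimod cream for 5 days and 200 μl of XYF at 23.3 mg/g by gavage for 10 days. By the methods of the study, the cream or Vaseline was applied on the last 5 of the 10 days of gavage. Each group holds 3 libraries, and the methods mention 2 mice as the source of the sheets, whether for each library or in all being unclear, so that the p-values measure the spread between these libraries. Total counts ranged from 30298275 to 64771160 per library, and the 4 genes had 460 counts or more in every library.

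Keratins form the intermediate filaments of epithelial cells as pairs of a type II and a type I protein. Resting interfollicular epidermis builds filaments from Krt5 and Krt14 in the basal layer and from Krt1, Krt2 and Krt10 above it, while the type II keratins Krt6a and Krt6b and the type I keratins Krt16 and Krt17 are known from hair follicles, nails, wound edges and psoriatic plaques. Krt16 is the usual partner of the Krt6 proteins in activated suprabasal cells, and Krt17 is known for roles in keratinocyte growth and in the inflammatory response of the skin. The basal keratins were abundant in these sheets, with 7332 ± 1381 CPM for Krt5 (CPM, the count of a gene scaled to library size after TMM normalization, mean ± SD, n = 3) and 5954 ± 918 CPM for Krt14 in the VAS + H2O group.

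In the VAS + H2O libraries all 4 genes were already detected. Krt17 had 459, 293 and 255 CPM in replicates 1, 2 and 3, Krt6a had 132, 118 and 110 CPM, and Krt16 had 56.9, 61.7 and 83.9 CPM. Krt6b had the fewest counts, with 15.1, 13.9 and 18.9 CPM. Divided by transcript length, so that genes can be compared, Krt17 led with 217 ± 70.1 CPM per kilobase (SD, n = 3), followed by Krt6a with 52.7 ± 4.84, Krt16 with 43.1 ± 9.21 and Krt6b with 7.16 ± 1.17. Krt6a and Krt16 overlapped between libraries on that scale, whereas Krt17 stood above both and Krt6b below both in each library. On the same scale Krt5 had 3337 ± 628 and Krt14 had 3507 ± 541 CPM per kilobase, so that each of the 4 genes was far below the basal pair in control epidermis.

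To ask how imiquimod changed these keratins, the IMQ + H2O group was compared with the VAS + H2O group. All 4 genes were higher in every IMQ + H2O library than in every control library, and the type II gene Krt6b differed most. Krt6b had 485, 1093 and 2918 CPM in IMQ + H2O replicates 1, 2 and 3, and Krt6a had 820, 1623 and 4086 CPM. Replicate 3 was the highest and replicate 1 the lowest for both type II genes. Krt16 had 2111, 1980 and 4017 CPM, and Krt17 had 879, 1313 and 2585 CPM. Replicate 3 was again the highest for both type I genes. The lowest IMQ + H2O library exceeded the highest control library by 25.6-fold for Krt6b, 23.6-fold for Krt16 and 6.21-fold for Krt6a, against 1.91-fold for Krt17. Between the groups the fitted change was 92.9-fold for Krt6b, 39.7-fold for Krt16, 18.0-fold for Krt6a and 4.70-fold for Krt17. On the log2 scale Krt6b went from 6.54 to 5.61 and Krt6a from 4.17 to 3.33 without IMQ + H2O replicate 3, and both were still called.

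**Figure D1:**
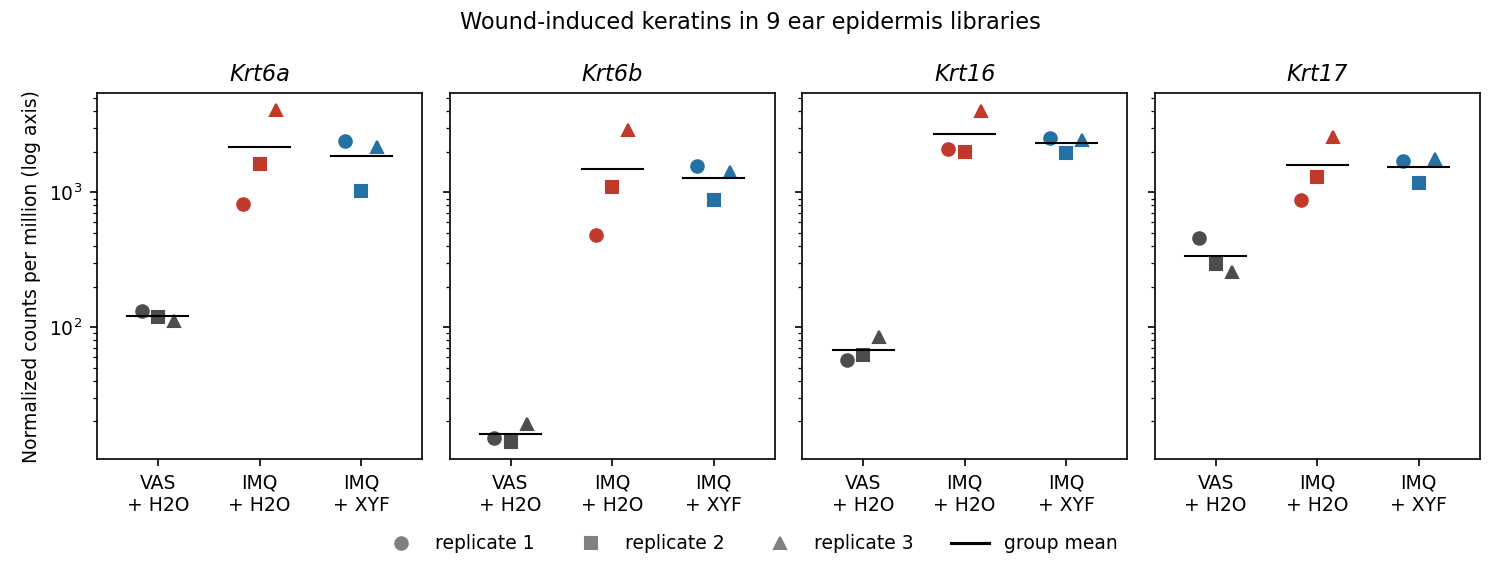
CPM (normalized counts) of Krt6a, Krt6b, Krt16 and Krt17 (log axis) in the 3 libraries of each group, with 1 symbol per replicate number and a line at the group mean. Every imiquimod library lies above every VAS + H2O library for each gene, and the IMQ + H2O and IMQ + XYF libraries overlap.

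In the quasi-likelihood test of edgeR, with Benjamini-Hochberg adjustment across the 18009 genes tested, the log2 fold change was 6.54 ± 0.73 for Krt6b (SE, adjusted p = 0.00597) and 5.31 ± 0.36 for Krt16 (adjusted p = 0.00194). It was 4.17 ± 0.59 for Krt6a (edgeR, adjusted p = 0.00881) and 2.23 ± 0.43 for Krt17 (edgeR, adjusted p = 0.0162). A gene counted as a DEG when its adjusted p did not exceed 0.05 and its log2 fold change reached 1 in size. By this rule 4 of 4 keratins were called higher, where 656 genes, or 3.64% of all genes tested, were called higher and 727, or 4.04%, were called lower. The 4 genes were also among the 23.4% of tested genes in which every IMQ + H2O library exceeded every control library. Ranked by log2 fold change among the genes tested, Krt6b stood at 27, Krt16 at 43, Krt6a at 70 and Krt17 at 237. With scaling by total counts alone, 545 genes were called higher and 911 lower. The call of Krt17 was lost without VAS + H2O replicate 2 (log2 fold change 2.15, edgeR adjusted p = 0.0600), and the 1383 DEGs became 857, 717 and 711 without VAS + H2O replicate 1, VAS + H2O replicate 2 and IMQ + H2O replicate 3. From whole sheets, more cells with these transcripts and more transcripts per cell cannot be told apart.

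Because the fold changes were unequal, the make-up of the set differed between the groups. Of the counts of the 4 genes per kilobase, Krt17 held 66.8 ± 7.41% in the VAS + H2O group (SD, n = 3), 23.7 ± 1.62% in the IMQ + H2O group and 25.8 ± 1.10% in the IMQ + XYF group. Krt16 went the other way, with 14.1 ± 5.19%, 42.4 ± 10.2% and 39.0 ± 4.36% in the same order. Krt6b held 2.32 ± 0.70%, 13.8 ± 4.63% and 14.7 ± 0.93%, while Krt6a held between 14.4% and 24.5% in all 9 libraries and overlapped between the groups. After imiquimod Krt16 had the highest level per kilobase of the 4 genes, with 1727 ± 729 CPM in the IMQ + H2O group, above Krt17 with 1027 ± 572, Krt6a with 955 ± 747 and Krt6b with 670 ± 567 CPM per kilobase. The last 3 of these levels differed by less than the spread between the libraries. Within each imiquimod library, however, Krt6b was below both Krt6a and Krt17 on this scale.

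The balance within each type was compared next. These pair ratios, like the shares per kilobase, were chosen after the values were seen. The ratio of Krt6a counts to Krt6b counts was 8.71, 8.46 and 5.81 in VAS + H2O replicates 1, 2 and 3, 1.69, 1.49 and 1.40 under IMQ + H2O, and 1.54, 1.16 and 1.52 in the IMQ + XYF libraries. All 6 imiquimod libraries lay below each control library, and the imiquimod groups overlapped. For the type I pair, the ratio of Krt17 counts to Krt16 counts was 8.08, 4.75 and 3.04 in the controls, 0.416, 0.663 and 0.643 under IMQ + H2O, and 0.672, 0.599 and 0.714 under IMQ + XYF. Krt17 thus exceeded Krt16 in each control library and was below it in each imiquimod library. From the VAS + H2O to the IMQ + H2O group the mean log2 ratio fell by 2.31 for Krt6a to Krt6b and fell by 3.12 for Krt17 to Krt16, without overlap between the libraries. Between the IMQ + H2O and IMQ + XYF groups the mean log2 ratios differed by -0.12 and 0.23, and both rested on single libraries. The first was -0.04 without IMQ + H2O replicate 1 and 0.01 without IMQ + XYF replicate 2, and the second was 0.01 without IMQ + H2O replicate 1.

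The type II and type I genes were also summed and set against each other. Per kilobase of transcript, the ratio of Krt6a plus Krt6b to Krt16 plus Krt17 was 0.194, 0.254 and 0.261 in VAS + H2O replicates 1, 2 and 3, 0.301, 0.569 and 0.732 under IMQ + H2O and 0.644, 0.417 and 0.586 under IMQ + XYF. Every imiquimod library lay above every control library, and the imiquimod groups overlapped. IMQ + H2O replicate 1 was the closest to the controls. By counts, without regard to transcript length, the mean log2 ratio was 1.08 higher in the IMQ + H2O group than in the VAS + H2O group.

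Set against the basal pair, the 4 genes went from a small to a large addition. Per kilobase, their sum equalled 6.01, 4.93 and 3.39% of the sum of Krt5 and Krt14 in VAS + H2O replicates 1, 2 and 3. It equalled 26.7, 35.8 and 65.5% under IMQ + H2O and 42.7, 26.9 and 42.9% under IMQ + XYF. The control libraries were separate from both imiquimod groups, which overlapped. The mean log2 ratio to the basal pair was 3.10 higher per kilobase in the IMQ + H2O group and 2.98 higher in the IMQ + XYF group than in the VAS + H2O group, against 3.21 and 3.10 by counts. Among the counts of all keratin genes per kilobase, the 4 genes held 1.21, 0.971 and 0.729% in the VAS + H2O libraries, 4.99, 7.41 and 17.3% under IMQ + H2O and 11.01, 6.60 and 9.91% under IMQ + XYF. The imiquimod groups overlapped in this share, and IMQ + H2O replicate 3 stood above all other libraries.

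The other epidermal keratins were called in both directions. Of 26 keratin genes listed as paralogs or pairing partners, 25 reached 3 counts in a library and 19 were tested between the IMQ + H2O and VAS + H2O groups, of which 2 were higher and 3 lower, beside 3.64% and 4.04% of all genes tested. Their median log2 fold change was -0.47, beside -0.03 over all genes tested. Krt15, a keratin of basal and follicle stem cells, fell from 2282 to 537 CPM (log2 fold change -2.10 ± 0.22, SE, edgeR, Benjamini-Hochberg adjusted p = 0.00575). Krt1, the type II keratin of the spinous layer, rose from 1198 to 3301 CPM (log2 fold change 1.45 ± 0.21, edgeR, Benjamini-Hochberg adjusted p = 0.00890). Its partner Krt10 had a log2 fold change of 0.27 and Krt2, of the upper layers, 0.33, and neither was called. Krt5 differed by 0.28 ± 0.15 (SE, edgeR, Benjamini-Hochberg adjusted p = 0.212) and Krt14 by 0.72 ± 0.16 (adjusted p = 0.0227), which is below the fold limit of a DEG.

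Krt42, which lies beside Krt17, rose from a mean of 0.446 to 2.06 CPM (log2 fold change 2.20 ± 0.42, SE, edgeR, Benjamini-Hochberg adjusted p = 0.0158). Its call was lost without VAS + H2O replicate 1 (1.99, adjusted p = 0.0544) and without VAS + H2O replicate 2 (2.01, adjusted p = 0.0533). Krt24 fell from 678 to 310 CPM (log2 fold change -1.14 ± 0.23, SE, edgeR, Benjamini-Hochberg adjusted p = 0.0188). Krt24 was not called without VAS + H2O replicate 1 (-0.99, adjusted p = 0.0577), VAS + H2O replicate 2 (-1.16, adjusted p = 0.0557), IMQ + H2O replicate 1 (-1.06, adjusted p = 0.0658) or IMQ + H2O replicate 3 (-0.97, adjusted p = 0.0424). Of 24 follicle keratins and trichohyalin, 23 were in the table, 21 reached 3 counts and 7 were tested, with 1 higher, 1 lower and a median log2 fold change of -0.37, beside 3.64%, 4.04% and -0.03 over all genes. Krt32, a hair cuticle keratin, fell from 4.82 to 1.36 CPM (log2 fold change -1.83 ± 0.26, SE, edgeR, Benjamini-Hochberg adjusted p = 0.00890). Krt84 rose from 3.36 to 9.07 CPM (log2 fold change 1.41 ± 0.36, SE, edgeR, Benjamini-Hochberg adjusted p = 0.0354). The call of Krt84 was lost without VAS + H2O replicate 2 (1.23, adjusted p = 0.104), VAS + H2O replicate 3 (1.28, adjusted p = 0.0856), IMQ + H2O replicate 1 (1.20, adjusted p = 0.0915) or IMQ + H2O replicate 2 (1.47, adjusted p = 0.0690). Between the IMQ + XYF and IMQ + H2O groups edgeR and DESeq2 called 0 of 20 keratins tested and 0 of 6 follicle genes tested. An unadjusted p below 0.05 was found for 1 and 0 of them, beside 5.43% of all genes. Against the VAS + H2O group edgeR called 3 of 20 keratins higher and 3 lower, and 1 of 6 follicle genes in each direction, in the IMQ + XYF group, beside 4.58% of all genes higher and 3.05% lower.

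**Figure D2:**
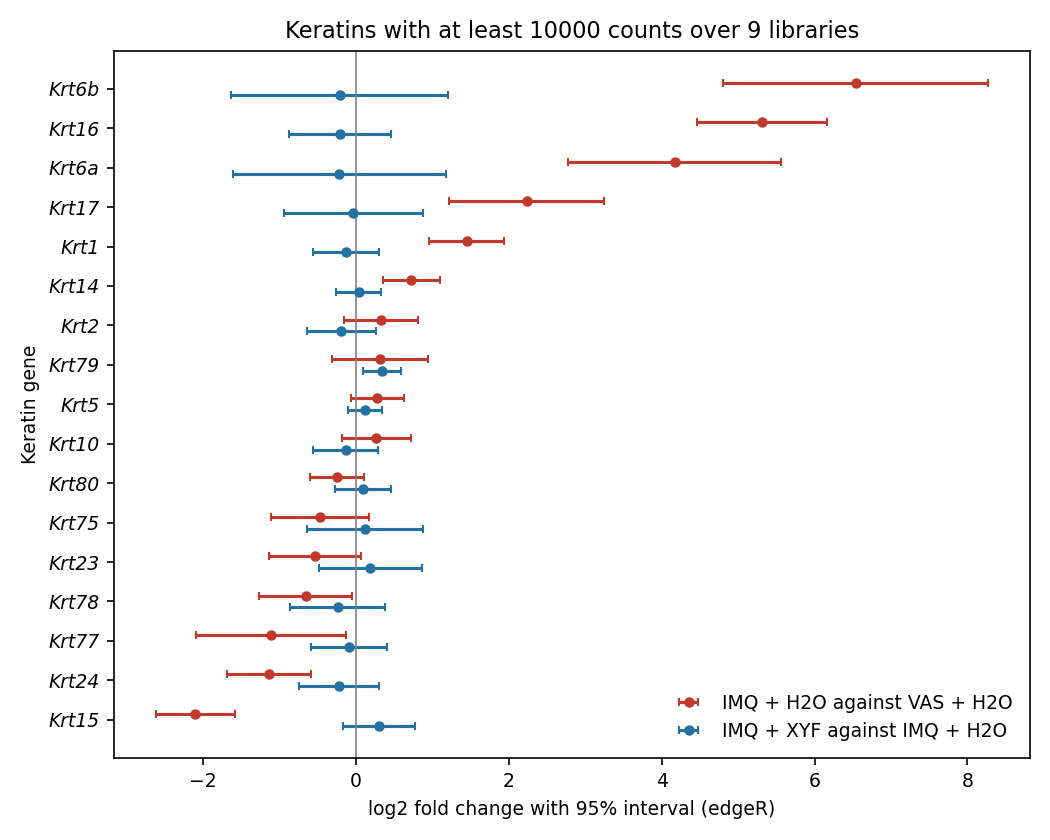
The log2 fold change with its 95% interval (edgeR) of the 17 keratin genes with at least 10000 counts over the 9 libraries, for IMQ + H2O against VAS + H2O (red) and IMQ + XYF against IMQ + H2O (blue). Krt6b, Krt16, Krt6a and Krt17 have the highest red values and Krt15 the lowest, while the blue intervals of the 4 wound-induced genes span 0.

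To ask whether the decoction changed the response, the IMQ + XYF group was compared with the IMQ + H2O group. None of the 4 genes was called in either direction. Krt6a had 2406, 1022 and 2168 CPM in IMQ + XYF replicates 1, 2 and 3, and Krt6b had 1562, 877 and 1423 CPM. For both genes the 3 values lay within the range of the IMQ + H2O libraries. Krt16 had 2541, 1966 and 2465 CPM, and Krt17 had 1708, 1177 and 1759 CPM. Krt17 lay within the range of the IMQ + H2O libraries too, whereas Krt16 in replicate 2 was just below the lowest of them. The spread was narrower under XYF, with the highest library at 2.35, 1.78, 1.29 and 1.49 times the lowest for Krt6a, Krt6b, Krt16 and Krt17, against 4.98, 6.02, 2.03 and 2.94 times in the IMQ + H2O group. Whether the spread differed between the groups was not tested.

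The log2 fold change of Krt6a was -0.22 with a 95% interval from -1.61 to 1.18, and that of Krt6b was -0.21 with an interval from -1.63 to 1.20. Krt16 had -0.21 with an interval from -0.88 to 0.45, and Krt17 had -0.03 with an interval from -0.94 to 0.88. The adjusted p was 0.9999 for each gene (edgeR, Benjamini-Hochberg over 17793 genes). These intervals hold no change as well as changes of more than 1 log2 unit either way for the type II genes. Called were 0 of 4 keratins and 5 of all genes tested, or 0.0281%, while 966 genes, or 5.43%, had an unadjusted p below 0.05. DESeq2 called 129 genes, of which 0 were among the 4 keratins. The 5 genes, Col27a1, Col11a2, Rnf13, Col9a1 and Tnpo1, were all higher under XYF and are named here after their values were seen. The count of DEGs was 1 without IMQ + H2O replicate 1, 5 without IMQ + H2O replicate 3, of which 4 were higher and 1 lower, and 0 without IMQ + H2O replicate 2 or any 1 of IMQ + XYF replicates 1, 2 and 3. The direction for the keratins depended on single libraries. Without IMQ + H2O replicate 3 the log2 fold changes were 0.61, 0.71, 0.18 and 0.50 for Krt6a, Krt6b, Krt16 and Krt17 (edgeR, adjusted p between 0.545 and 0.672), and without IMQ + XYF replicate 2 they were 0.08 for Krt6a, 0.00058 for Krt6b and 0.13 for Krt17.

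The IMQ + XYF group was also compared with the VAS + H2O group, whose libraries serve in the imiquimod comparison as well, so that the results share their controls. Under imiquimod with XYF the 4 genes were higher than in the controls in every library. The lowest IMQ + XYF library exceeded the highest control library by 46.3-fold for Krt6b, 23.4-fold for Krt16, 7.75-fold for Krt6a and 2.56-fold for Krt17. The log2 fold change was 6.33 ± 0.28 for Krt6b (SE, edgeR, Benjamini-Hochberg adjusted p = 0.000145) and 5.11 ± 0.20 for Krt16 (adjusted p = 0.00011). For Krt6a it was 3.96 ± 0.33 (SE, edgeR, Benjamini-Hochberg adjusted p = 0.000913) and for Krt17 2.20 ± 0.26 (adjusted p = 0.00214). By this test 4 of 4 keratins were called higher, where 823 of 17954 genes, or 4.58%, were called higher and 548, or 3.05%, lower. In 25.1% of the genes tested every IMQ + XYF library exceeded every control library.

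The libraries of a group were not alike, and the keratins differed most within the IMQ + H2O group. The summed level of the 4 genes was 4294, 6009 and 13605 CPM in IMQ + H2O replicates 1, 2 and 3, and 8217, 5042 and 7814 CPM in the IMQ + XYF libraries. In the VAS + H2O libraries it was 663, 487 and 468 CPM. Replicate 3 of the IMQ + H2O group thus had the highest sum of all 9 libraries. The 6 neutrophil markers, of which Cxcr2 was the most abundant, summed to 11.2, 10.8 and 12.7 CPM in the controls, 49.4, 51.9 and 144 CPM under IMQ + H2O and 89.9, 62.5 and 63.5 CPM under IMQ + XYF. Of these markers 1 of 1 tested was called higher in the IMQ + H2O group, beside 3.64% of all genes, and Ly6g, Retnlg and Mpo had 0 counts in all control libraries. The 8 suprabasal markers, led by Krt10, summed to 36205, 32919 and 40701 CPM in the controls, 52129, 44881 and 33601 CPM under IMQ + H2O and 37082, 41744 and 40391 CPM under IMQ + XYF, with 2 of 8 called higher in the IMQ + H2O group. IMQ + H2O replicate 3 thus had the highest neutrophil sum and the lowest suprabasal sum of its group, and the part of these cell types in the keratin values was not tested.

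Markers of tissue other than keratinocytes set VAS + H2O replicate 2 apart. The 5 skeletal muscle markers, led by Myh1, summed to 2.79, 242 and 3.75 CPM in VAS + H2O replicates 1, 2 and 3, 0.725, 3.17 and 3.05 CPM under IMQ + H2O and 13.0, 60.9 and 1.71 CPM under IMQ + XYF. The 7 dermal fibroblast markers, led by Dcn, summed to 72.9, 645 and 104 CPM, then 48.0, 50.1 and 53.2 CPM, then 210, 157 and 73.5 CPM in the same order. VAS + H2O replicate 2 was the highest of the 9 libraries in both. The 7 cartilage markers, led by Acan, summed to 174, 403 and 182 CPM in the controls, 78.1, 53.4 and 34.1 CPM under IMQ + H2O and 183, 122 and 122 CPM under IMQ + XYF. Between the IMQ + H2O and VAS + H2O groups edgeR called 2 of 7 fibroblast and 6 of 6 cartilage markers tested lower, beside 4.04% of all genes. DESeq2 called 5 fibroblast and 7 cartilage markers, and 6 of each had an unadjusted p below 0.05. Of the 4 muscle markers tested each tool called 0, and 4 had an unadjusted p below 0.05. The median log2 fold changes of the fibroblast, cartilage and muscle markers were -2.38, -2.81 and -4.15, beside -0.03 over all genes. Over all genes tested in that comparison 6823, or 37.9%, had an unadjusted p below 0.05. For IMQ + XYF against IMQ + H2O edgeR called 1 of 6 cartilage markers higher, beside 0.0281% of all genes in either direction. An unadjusted p below 0.05 was found for 6 of them, beside 5.43% of all genes, with a median log2 fold change of 1.81. DESeq2 called 6 cartilage markers, and 129 genes in all. In that comparison edgeR called 0 of 7 fibroblast markers, with 6 at an unadjusted p below 0.05, beside 5.43% of all genes. DESeq2 called 4 fibroblast markers, and the median was 1.41. Of the muscle markers edgeR called 0 of 4, with 3 at an unadjusted p below 0.05, beside 5.43% of all genes. DESeq2 called 1 muscle marker, and the median was 2.64. Their part in the keratin values was not tested, and in VAS + H2O replicate 2 Krt6b had its lowest value, while Krt6a, Krt16 and Krt17 lay between those of the other control libraries. No marker was at 0 in all 9 libraries.

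The remaining marker lists were summed in the same way. Their calls and unadjusted p-values are those between the IMQ + H2O and VAS + H2O groups. There 3.64% of all genes were called higher, 4.04% were called lower and 37.9% had an unadjusted p below 0.05. The 6 basal markers, led by Krt5, had 0 of 6 called by edgeR or DESeq2, with 2 at an unadjusted p below 0.05, and summed to 17116, 15785 and 20226 CPM in the controls, 21654, 21820 and 25056 CPM under IMQ + H2O and 23410, 24496 and 22794 CPM under IMQ + XYF. The 14 hair follicle markers, led by Gata3, had 0 of 12 tested called by either tool, with 5 at an unadjusted p below 0.05, and summed to 553, 497 and 500 CPM, then 319, 341 and 340 CPM, then 346, 318 and 379 CPM. The follicle sum was below every control library in all 6 imiquimod libraries. The 9 sebaceous gland markers, led by Scd1, had 2 of 9 called lower and summed to 4551, 5678 and 3101 CPM, then 2761, 2631 and 2291 CPM, then 2774, 3041 and 2664 CPM. The 5 T cell markers, led by Trdc, had 1 of 5 called lower and 5 at an unadjusted p below 0.05. Their median log2 fold change was -0.81, beside -0.03 over all genes. They summed to 61.8, 59.3 and 54.0 CPM, then 29.7, 41.6 and 37.0 CPM, then 41.3, 39.2 and 27.6 CPM. The sebaceous and T cell sums were lower in all 6 imiquimod libraries than in the controls. The 2 sebaceous markers called were Scd1 and Scd3. Over the 9 sebaceous markers the median log2 fold change between the IMQ + H2O and VAS + H2O groups was -0.04, beside -0.03 over all genes. The 5 Langerhans cell markers, led by Cd74, had 0 of 5 called by either tool and 0 at an unadjusted p below 0.05, with sums between 544 and 742 CPM over the 9 libraries. The 5 monocyte or macrophage markers, led by Csf1r, had 1 of 4 tested called higher, with sums between 34.1 and 49.3 CPM. The 5 melanocyte markers, led by Dct, had sums of 14.0 to 39.2 CPM and 0 calls by either tool, with 2 at an unadjusted p below 0.05. The 4 endothelial markers, led by Pecam1, had sums of 4.44 to 11.98 CPM, 0 calls by either tool and 0 at an unadjusted p below 0.05. Of the 4 Merkel cell markers, led by Krt8 and with sums of 1.38 to 4.37 CPM, edgeR tested 1, which had an unadjusted p below 0.05, and called 0, while DESeq2 called 2. The part of these cell types in the keratin values was not tested either.

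Of 26 ligands and receptors listed as upstream of the wound keratins 26 were tested, 6 were called higher, beside 3.64% of all genes tested, and 0 lower, with a median log2 fold change of 0.58 beside -0.03 over all genes. Epgn, a ligand of the epidermal growth factor receptor, rose from 3.14 to 172 CPM (log2 fold change 5.78 ± 0.64, SE, edgeR, Benjamini-Hochberg adjusted p = 0.00575). Without IMQ + H2O replicate 3 its log2 fold change was 5.09. The interleukin gene Il1a rose from 5.75 to 25.8 CPM (log2 fold change 2.15 ± 0.23, edgeR, adjusted p = 0.00575). Its relatives Il1f9 and Il1f6 rose from 55.2 to 122 CPM (log2 fold change 1.14 ± 0.12) and from 8.15 to 28.9 CPM (1.81 ± 0.26), with adjusted p = 0.00575 and 0.00931 by edgeR. Between the IMQ + XYF and IMQ + H2O groups edgeR and DESeq2 called 0 of 26, with a median of -0.06. In that comparison 1 of the 26 had an unadjusted p below 0.05, beside 5.43% of all genes. By edgeR 7 were called higher in IMQ + XYF than in VAS + H2O, beside 4.58% of all genes.

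The transcription factors linked to these genes gave no calls by edgeR between the IMQ + H2O and VAS + H2O groups, with 0 of 31 and a median log2 fold change of -0.01, while 19 had an unadjusted p below 0.05, beside 37.9% of all genes, and DESeq2 called 1. The most abundant were Fos, at 2888 CPM in the controls and 1884 CPM in the IMQ + H2O group (log2 fold change -0.63 ± 0.24, SE, edgeR, Benjamini-Hochberg adjusted p = 0.108), and Jun, at 1768 and 1355 CPM (-0.40 ± 0.27, adjusted p = 0.328). Of 18 genes for filament linkers and desmosome anchors in the table, from 19 listed, 1 was called higher and 0 lower, near the share of all genes (3.64% higher), with a median of 0.00034. DESeq2 called 2 of these linkers, and 9 had an unadjusted p below 0.05, beside 37.9% of all genes. Dsg3, a desmosomal cadherin of the basal layers, rose from 205 to 515 CPM (log2 fold change 1.32 ± 0.19, SE, edgeR, Benjamini-Hochberg adjusted p = 0.00921). Of 22 proliferation genes 6 were called higher by edgeR, beside 3.64% of all genes, and 0 lower, with a median of 1.15. DESeq2 called 12 of them, and 17 had an unadjusted p below 0.05, beside 37.9% of all genes. Rrm2, a subunit of ribonucleotide reductase, had a log2 fold change of 2.01 ± 0.29 (SE, edgeR, Benjamini-Hochberg adjusted p = 0.00927), and Mybl2, a regulator of the cell cycle, 1.62 ± 0.26 (adjusted p = 0.0114). The replication helicase genes Mcm3 and Mcm5 had 1.61 (edgeR, adjusted p = 0.0125) and 1.62 (adjusted p = 0.0137). The proliferation genes summed to 560, 755 and 1025 CPM in VAS + H2O replicates 1, 2 and 3, 1386, 1447 and 1847 CPM under IMQ + H2O and 1645, 1986 and 1966 CPM under IMQ + XYF, with every imiquimod library above every control library. Between the IMQ + XYF and IMQ + H2O groups edgeR and DESeq2 called 0 of 31 factors, 0 of 18 linkers and 0 of 22 proliferation genes. An unadjusted p below 0.05 was found for 3, 0 and 1 of them, beside 5.43% of all genes. Against the VAS + H2O group edgeR called 1 factor, 2 linkers and 18 proliferation genes higher and 1 linker lower in the IMQ + XYF group, beside 4.58% and 3.05% of all genes. DESeq2 called 20 of the proliferation genes in that comparison.

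The genes whose log2 levels ran most closely with the mean of the 4 keratins over the 9 libraries were sought among 18492 genes. They were Stfa1 (Pearson r = 0.999), Plet1 (0.998), Gm5416 (0.997), Bdkrb2 (0.996) and BC100530 (0.996). Stfa1 and BC100530, of the stefin A family of protease inhibitors, had means of 0.458 and 1.86 CPM in the VAS + H2O group, 83.7 and 267 CPM in the IMQ + H2O group and 72.1 and 255 CPM in the IMQ + XYF group. As for the keratins, IMQ + H2O replicate 3 was the highest, with 28.1, 52.1 and 171 CPM of Stfa1 and 115, 177 and 509 CPM of BC100530 in replicates 1, 2 and 3. Without it their log2 fold changes against the VAS + H2O group went from 7.47 to 6.41 and from 7.13 to 6.26. Plet1 had means of 70.7, 251 and 245 CPM in the VAS + H2O, IMQ + H2O and IMQ + XYF groups. Bdkrb2, a bradykinin receptor, had means of 2.48, 15.9 and 16.8 CPM in the same groups. All 5 were lower in the controls than under imiquimod, and Gm5416 had 0 counts in all 3 control libraries. For single genes the closest was Fam167a for Krt6a (r = 0.998), Stfa1 for Krt6b (0.998), 2610528A11Rik for Krt16 (0.997) and Sprr1a, a cornified envelope precursor, for Krt17 (0.995). Among the 4 keratins themselves r ranged from 0.935 for Krt16 with Krt17 to 0.990 for Krt6a with Krt6b and for Krt6b with Krt16. These values describe 9 points that share the libraries and the difference between control and imiquimod, and any gene that differs strongly between those groups gives a high r.

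The 4 genes lie in pairs in the keratin clusters of the mouse genome (build GRCm38, GENCODE annotation), all on the minus strand. Krt6b (ENSMUSG00000023041) spans bases 101676023 to 101680287 of chromosome 15 and Krt6a (ENSMUSG00000058354) bases 101689910 to 101694307, with 9622 bases between them. Krt16 (ENSMUSG00000053797) spans bases 100246091 to 100248902 of chromosome 11 and Krt17 (ENSMUSG00000035557) bases 100256217 to 100261029, with 7314 bases between them. The type II transcripts have 9 exons and 2278 bases for Krt6a and 2235 for Krt6b, and the type I transcripts 8 exons and 1565 bases for Krt16 and 1551 for Krt17. Krt5 is the next keratin gene beside Krt6a, and Krt14 lies in the type I cluster with Krt16 and Krt17. Within 60000 bases of the Krt6 pair, the predicted gene Gm5414 had 0.338, 0.182 and 0.086 CPM in VAS + H2O replicates 1, 2 and 3, and 0.484, 1.59 and 4.63 CPM in the IMQ + H2O libraries, the lowest of which was close to the highest control. Its neighbour Gm5478 had 104 counts, all of them in IMQ + H2O replicate 2.

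**Figure D3:**
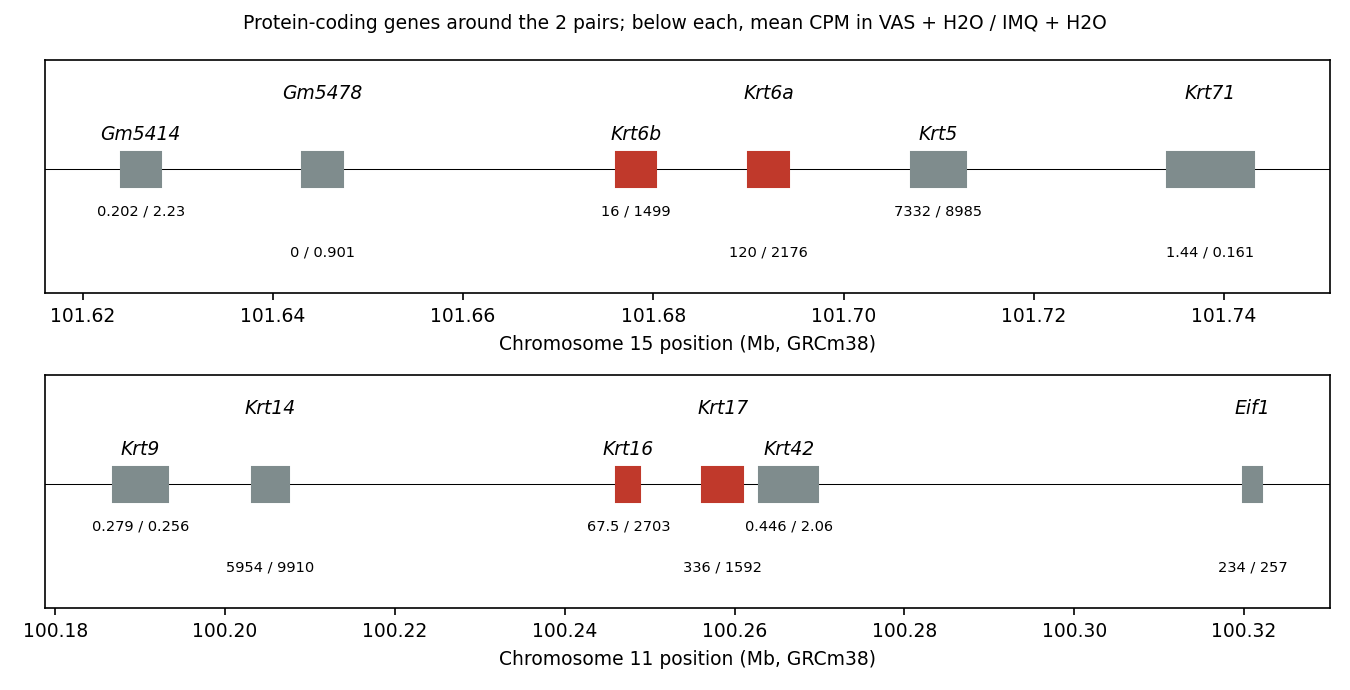
Positions of the protein-coding genes around Krt6b and Krt6a on chromosome 15 and around Krt16 and Krt17 on chromosome 11 (Mb, GRCm38), drawn to scale with the 4 genes in red. Below each gene stand the mean CPM of the VAS + H2O and IMQ + H2O groups, with Krt5 and Krt14 far above their neighbours in both.

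Because paralogs share sequence, reads can fit more than 1 gene, which bears on how far each value belongs to its own gene. The coding sequences of Krt6a and Krt6b were identical at 1622 of 1659 aligned bases, or 97.8%, with a longest identical run of 280 bases. Krt16 and Krt17 were identical at 1002 of 1291 bases, or 77.6%, with a longest run of 55 bases, while Krt16 shared 86.4% with Krt14. The length of the reads was not taken from the data, and a length of 100 bases was assumed. Of all stretches of 100 bases in the transcript of Krt6a, 29.5% occur identically in a transcript of Krt6b, and 47.5% in a transcript of any other annotated gene. Gm49428, which is not in the count table, holds 13.5% of all stretches of Krt6a. For Krt6b the share was 30.1% with Krt6a and 30.6% with any other gene. For Krt16 it was 24.3% with any other gene, of which the pseudogene Gm11597, with 0 counts in all 9 libraries, gave 21.1% and Krt14 gave 3.14%. Krt16 and Krt17 shared no such stretch, and the share of Krt17 with any other gene was 0%. The shares depend on the length assumed, and for Krt6a with Krt6b they were 43.6% at 50 bases and 18.5% at 150 bases, while Krt17 shared 3.99% with any other gene at 50 bases. How reads of shared stretches were counted is not stated, so that the split between Krt6a and Krt6b was taken from the table as given. With the pair summed into 1 gene the log2 fold change was 4.74 ± 0.63 between the IMQ + H2O and VAS + H2O groups (SE, edgeR, Benjamini-Hochberg adjusted p = 0.00805) and -0.22 between the IMQ + XYF and IMQ + H2O groups. For Krt16 and Krt17 summed it was 3.40 ± 0.36 (edgeR, Benjamini-Hochberg adjusted p = 0.00573) and -0.14.

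The stretches in which the paralogs differ most within the coding sequence are shown, since only such bases let a read be given to 1 gene of a pair. Bases are counted from the start codon, 787 to 876 for Krt6a and Krt6b, with 12 mismatches in capitals.
Krt6a: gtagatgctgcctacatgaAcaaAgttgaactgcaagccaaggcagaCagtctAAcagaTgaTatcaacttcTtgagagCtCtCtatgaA
Krt6b: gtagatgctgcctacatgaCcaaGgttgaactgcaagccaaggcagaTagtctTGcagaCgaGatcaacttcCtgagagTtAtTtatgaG

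For the type I pair the window covers coding bases 543 to 632 of Krt16 and 456 to 545 of Krt17 and holds 30 mismatches, in capitals.
Krt16: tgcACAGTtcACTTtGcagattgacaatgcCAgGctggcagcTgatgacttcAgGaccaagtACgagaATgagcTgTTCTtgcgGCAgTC
Krt17: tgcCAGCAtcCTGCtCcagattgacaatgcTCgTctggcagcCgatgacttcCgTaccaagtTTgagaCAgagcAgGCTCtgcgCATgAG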

How the data were processed

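RNA sequencing counts per gene of 9 ear epidermis libraries were taken as the authors deposited them, as raw counts per gene, and 0 sample columns were left unmatched. By the labels the libraries were strand-specific, and the submitters list FastQC, STAR 2.5, Cuffnorm and DESeq 1.22.1. The methods of the study name TruSeq libraries, a HiSeq instrument, STAR, GRCm38 with Ensembl release 90, StringTie and DESeq2. The counting program and its strand setting were not given in the sources used here.

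Each pair of groups was fitted on its 6 libraries in R 4.3.3 with edgeR 4.0.16 (filterByExpr, TMM, quasi-likelihood F test, two-sided, Benjamini-Hochberg over all genes tested). The same steps were tested on simulated data. Standard errors and 95% intervals came from the F statistic. Levels are TMM-normalized CPM, divided by transcript length in kilobases where genes are compared. Positions are from GENCODE M release 21. The lists, on keratins, follicle genes, linkers, ligands and receptors, transcription factors, proliferation genes and cell type markers, and the members were chosen with earlier results of these data known. Genes were named by rule: per list up to 4 with the lowest adjusted p among those called between the IMQ + H2O and VAS + H2O groups, any called between the IMQ + XYF and IMQ + H2O groups, or the 2 with the most counts where none was called. The 5 genes most like the mean of the members, and the 1 most like each, were named as well. Krt2, Krt5, Krt10 and Krt14 were named outside this rule. Of the marker lists counts and sums are given, without the fold changes of the genes so named. The total counts per library ranged from 30298275 to 64771160. Tried as alternatives were DESeq2 1.42.0, other scalings and filters, all 9 libraries in 1 fit, the adjusted p alone, paralogs summed, the replicate number as a block, and each library left out. The pair ratios were added after the values were seen. No protein or promoter sequence of the 4 genes was at hand.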

Additional observations from a re-analysis of the deposited data

How the results depend on the processing

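For the 4 keratins over the 3 comparisons, with 1 library left out 64 results kept direction and side of the threshold, 1 lost its call and 7 changed sign, and under other settings 105 kept both, 1 lost its call and 2 changed sign. The cause was not tested. Between the IMQ + H2O and VAS + H2O groups the log2 fold change of Krt17 ran from 1.69 to 2.56 with 1 library left out, its highest adjusted p over the alternatives was 0.0600, and 3 to 4 keratins were called. Between the IMQ + XYF and IMQ + H2O groups it ran from -0.61 to 0.61 for Krt6a, -0.64 to 0.71 for Krt6b, -0.39 to 0.18 for Krt16 and -0.33 to 0.50 for Krt17, with no keratin called.

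The count of DEGs between the IMQ + H2O and VAS + H2O groups was 1383, 3986 by the adjusted p alone, and 711 to 1314 with 1 library left out. For IMQ + XYF against VAS + H2O it was 1371, and 5152 by the adjusted p alone. For IMQ + XYF against IMQ + H2O it was 5, 129 with DESeq2, 1 with all 9 libraries in 1 fit, and 0 to 5 with 1 library left out.

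With the replicate block, a paired fit by replicate number, the DEGs between the IMQ + XYF and IMQ + H2O groups were 0, and Krt6b and Krt17 had log2 fold changes of 0.086 and 0.083. Between the IMQ + H2O and VAS + H2O groups Krt17 had 2.13 (edgeR, adjusted p = 0.0529), and 3 keratins were called. The labels do not say that a number joins samples, and the deviations of same-numbered samples correlated at 0.007, 0.009 and 0.029 between the IMQ + H2O and VAS + H2O groups, at -0.133, 0.082 and 0.105 between the IMQ + XYF and IMQ + H2O groups, and at -0.055, 0.087 and 0.102 between the IMQ + XYF and VAS + H2O groups. Not every sample correlated best with its own number.

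Of the other named genes, marker genes included, all alternatives together gave 501 of 544 results with the same direction and call between the IMQ + H2O and VAS + H2O groups, 42 lost and 1 gained a call, and 0 changed sign. Between the IMQ + XYF and IMQ + H2O groups 486 of 545 kept both, 7 lost and 5 gained a call, and 47 changed sign, all of these in genes that were not called. For IMQ + XYF against VAS + H2O it was 504 of 531, with 17 lost, 8 gained and 2 of changed sign. The keratin ratios kept their direction against the VAS + H2O group in each alternative run, those for the pair ratios being added after the values were seen. Between the IMQ + XYF and IMQ + H2O groups the log2 difference changed sign for Krt6a to Krt6b without IMQ + XYF replicate 2 (0.01), for type II to type I without IMQ + H2O replicate 1 (-0.26) or IMQ + XYF replicate 1 (-0.02), and for wound to basal keratins without IMQ + H2O replicate 3 (0.28) or IMQ + XYF replicate 2 (0.13).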
